A study of Mus musculus with 8 samples.

Results

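The genes described here encode the drug, organic ion and platinum transporters of the mouse kidney. They were taken by symbol, as every gene of the Slc22a, Slco, Slc47a, Slc17a and Slc31a families, every Abca to Abcg gene, and the copper ATPases Atp7a and Atp7b. Of the 35880 rows of the deposited table that could be used, 61 were such genes, and 45 more lay on rows that could not be assigned to libraries and were not analysed here. Kidney RNA of wild-type mice was sequenced as 4 control and 4 cisplatin libraries, collected 72 h after the injection of saline or of cisplatin at 23 mg/kg, a dose given in the study's methods. The methods describe male C57/BL6J mice and an intraperitoneal injection, and all groups of the experiment came from that strain. Each library is a whole-tissue sample, so fewer cells of a type and less RNA per cell cannot be told apart. The total count over the usable rows ran from 13539665 to 16201443 in the control libraries, numbered 1, 2, 3 and 5, and from 10953338 to 16701599 in the cisplatin libraries, numbered 1, 3, 4 and 6.

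Cisplatin is a platinum chemotherapy drug that is cleared by the kidney and injures it. Proximal tubule cells take up organic ions from the blood side through carriers of the Slc22 family and pass them into the urine through pumps and exchangers on the opposite, apical side. The organic cation transporter Slc22a2 and the copper transporter Slc31a1 are best known for bringing cisplatin into these cells, while the proton exchangers Slc47a1 and Slc47a2 and the ABC pumps carry drugs or their conjugates out. The members were therefore placed by known role into 22 uptake genes, 10 efflux genes and 29 genes in neither arm, the last group holding lipid, vesicular and mitochondrial transporters, channel subunits and carriers of other substrates.

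The cisplatin libraries did not form an even group, and this bears on many of the values below. Cisplatin 1 and 3 had almost no counts of the Y-linked genes, with 2 and 0 counts of Kdm5d and 3 and 0 counts of Eif2s3y, although the methods describe male mice. In the other 6 libraries, Kdm5d had 274 to 576 counts and Eif2s3y had 541 to 1333. The second principal component, which held 16.0% of the variance, separated control 5 and cisplatin 4 and 6 from control 1, 2 and 3 and cisplatin 1 and 3. The absence of Y-linked counts and the position on this component cannot be told apart within the cisplatin group, since cisplatin 1 and 3 share both. Results are therefore also given without cisplatin 1 and 3.

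Of the 61 transporter genes, 49 passed the expression filter and were tested, and 4 of them were higher and 31 lower after cisplatin by edgeR's quasi-likelihood test (called at an adjusted p below 0.05 with a change of 1 or more on the log2 scale). Across all 9141 genes tested, 19.2% were called higher and 15.7% lower. The median log2 fold change of the tested transporter genes was -1.49, against 0.08 for all genes tested. All 4 cisplatin libraries lay below all 4 controls for 32 of the 49 genes and above them for 4, where the shares over all genes were 22.5% and 23.7%. The 12 untested members were at most 1.65 CPM (counts per 1000000 counts of a library, scaled by TMM) in any library, and 3 of them had no count.

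**Figure D1:**
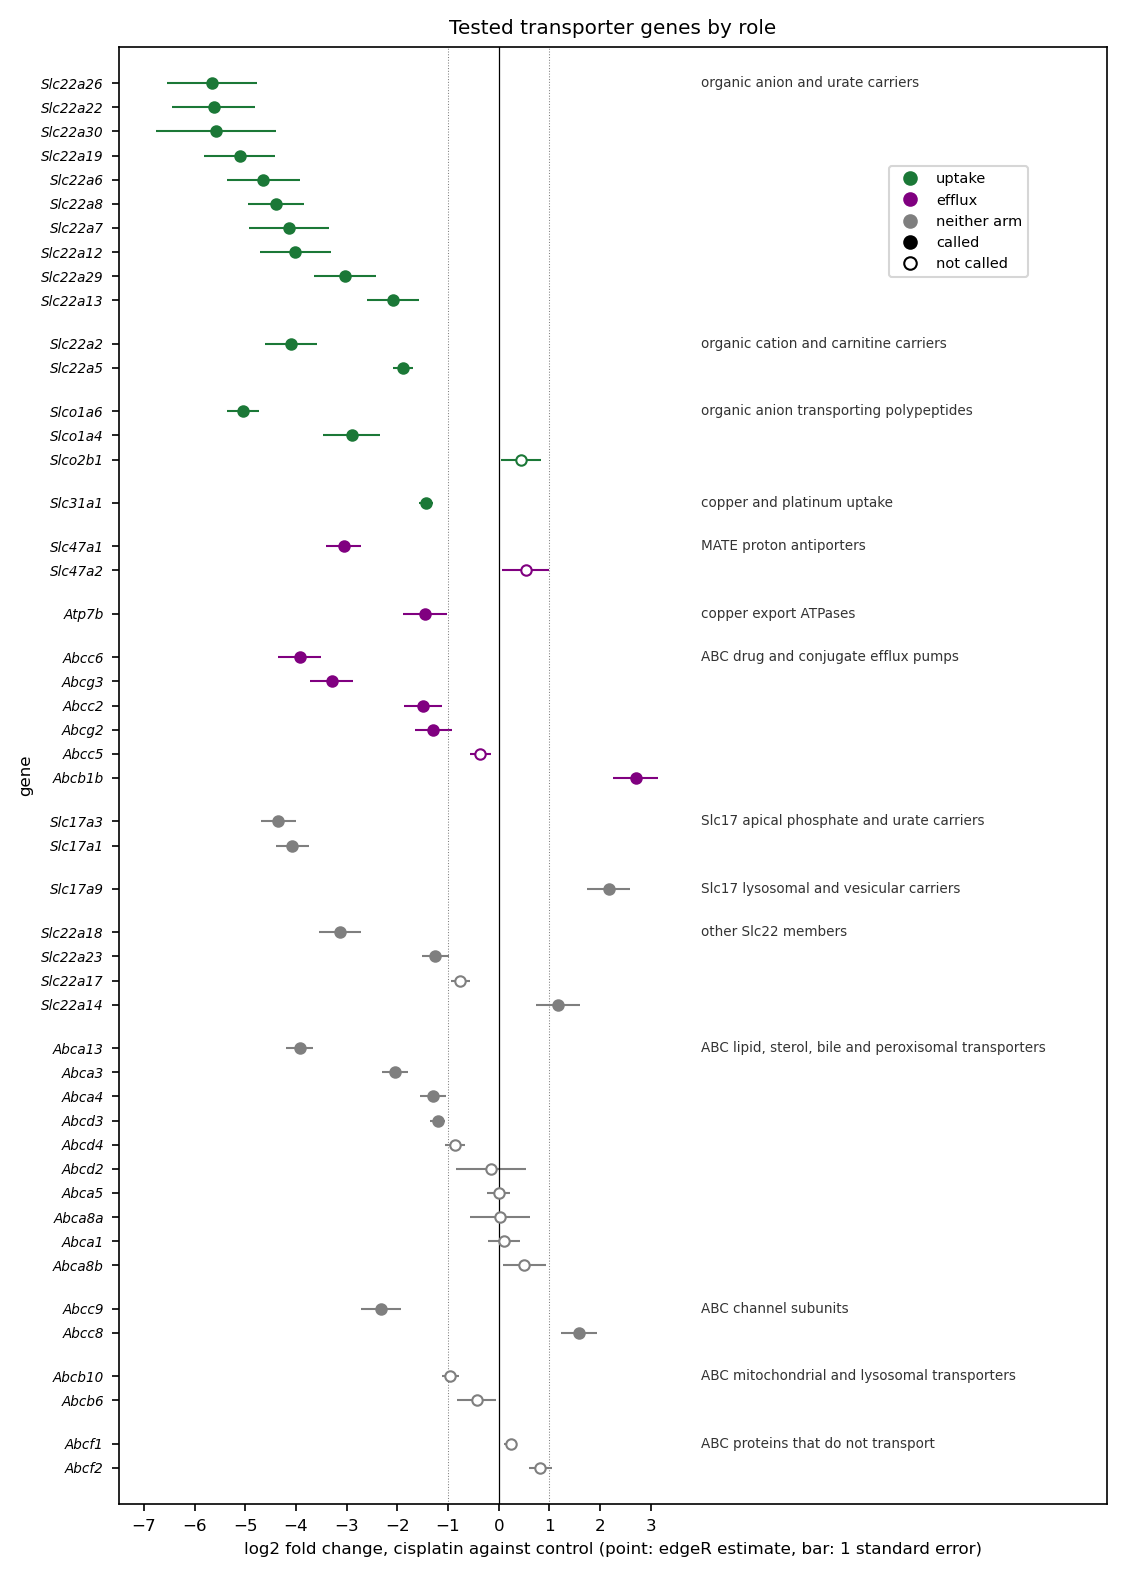
Log2 fold change of 48 tested transporter genes, cisplatin against control, as the edgeR estimate with 1 standard error, grouped by role and coloured by arm. Filled points passed the test, and 15 of the 16 uptake genes drawn lie among the filled points left of the dotted line at -1.

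Nearly all uptake genes were lower, and the efflux genes were mixed. Of 17 tested uptake genes, 16 were lower, none was higher, and 1 was not called, and their median log2 fold change was -4.10. Of 9 tested efflux genes, 6 were lower, 1 was higher and 2 were not called, with a median of -1.45. Without cisplatin 1 and 3, 3 of the 9 efflux genes were lower and 2 higher, where 20.5% and 21.4% of all genes were. With scaling by total library size alone, 3 efflux genes were lower and 1 higher, where 8.78% and 34.7% of all genes were. The 23 tested genes in neither arm included 9 lower and 3 higher, with a median of -0.76. The medians describe these lists and were not tested against each other.

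Levels summed over the measured genes of each arm were also lower after cisplatin. Of the efflux pumps and copper exporters, Abcb1a, Abcc1, Abcc3, Abcc4, Abcc10 and Atp7a lay on rows that were not used. Uptake carriers such as Slc22a3, Slc31a2 and Slco1a1 lay there too. The sums, the ratio and the shares below therefore cover part of each arm. Per kilobase of the gene length in the table, the 22 uptake genes summed to 3277 ± 815 CPM per kb in control kidneys and to 276 ± 142 CPM per kb after cisplatin (SD, n = 4), which was 8.44% of the control level. The 10 efflux genes summed to 548 ± 72.1 CPM per kb in control kidneys and to 125 ± 51.0 CPM per kb after cisplatin, which was 22.8% of the control level. The ratio of summed uptake to summed efflux level was 5.99, 5.26, 5.62 and 6.82 in control 1, 2, 3 and 5, and 2.17, 1.79, 2.13 and 2.53 in cisplatin 1, 3, 4 and 6. The groups did not overlap in this ratio, and cisplatin 1 and 3 were not set apart from cisplatin 4 and 6 in it, although their sums in each arm were lower.

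**Figure D2:**
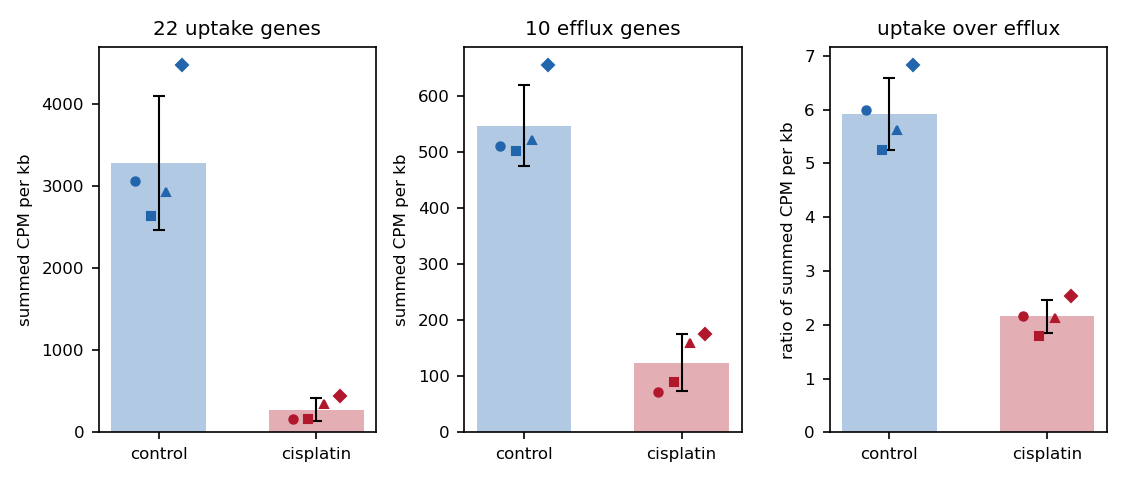
Summed level of the 22 uptake genes, summed level of the 10 efflux genes (both in CPM per kb) and the ratio of the sums, by group. Bars are means with SD, points are the 4 libraries of a group, and the ratio runs from 5.26 to 6.82 in controls and from 1.79 to 2.53 after cisplatin.

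The organic anion and urate carriers, which bring anionic drugs, uremic solutes and urate into the tubule cell, were lower throughout. All 10 tested members of the 11 were called lower, with a median log2 fold change of -4.52. For Slc22a13 alone of these the groups overlapped, with control 3 at 46.8 CPM and cisplatin 6 at 49.6 CPM. Slc22a6, known as OAT1 and the main basolateral exchanger of organic anions for dicarboxylates, measured 2435, 1635, 2663 and 2751 CPM in control 1, 2, 3 and 5, and 28.2, 24.1, 104 and 224 CPM in cisplatin 1, 3, 4 and 6. The groups lay far apart, and cisplatin 4 and 6 were above cisplatin 1 and 3. Its log2 fold change was -4.64 ± 0.72 (SE; edgeR adjusted p = 0.000614), and it was -5.51 without cisplatin 6 and -3.85 without cisplatin 1 and 3.

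Slc22a8 (OAT3), which works beside OAT1 on the same membrane, was at 859, 666, 965 and 1557 CPM in control 1, 2, 3 and 5. In cisplatin 1, 3, 4 and 6 it was at 35.5, 13.7, 57.5 and 85.8 CPM, with a log2 fold change of -4.40 ± 0.55 (SE; edgeR adjusted p = 0.00017). This estimate was -3.81 without cisplatin 1 and 3. As for Slc22a6, cisplatin 4 and 6 were the higher pair, and no cisplatin library came near a control.

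The largest falls of the role were in Slc22 genes that are expanded in rodents or little studied elsewhere. Slc22a26 measured 66.6, 99.2, 27.5 and 44.1 CPM in control 1, 2, 3 and 5, and 0.182, 0.055, 2.05 and 2.78 CPM in cisplatin 1, 3, 4 and 6, a log2 fold change of -5.65 ± 0.89 (SE; edgeR adjusted p = 0.000646). Slc22a22, a prostaglandin-specific carrier, measured 218, 196, 204 and 187 CPM in the controls and 1.05, 0.715, 2.78 and 12.4 CPM after cisplatin, a log2 fold change of -5.62 ± 0.82. Slc22a30 measured 435, 418, 464 and 343 CPM in the controls and 0.864, 0.055, 9.30 and 25.1 CPM after cisplatin, a log2 fold change of -5.58 ± 1.18. Cisplatin 6 was the highest cisplatin library for all 3 genes, and without it the estimates were -6.43 for Slc22a26, -7.10 for Slc22a22 and -6.98 for Slc22a30. The respective estimates were -4.62, -4.74 and -4.59 without cisplatin 1 and 3. In cisplatin 3, the values of Slc22a26 and Slc22a30 rested on a single count each, so their depth of fall there was limited by counting. These carriers have close paralogs, and reads that fit several of them may have been split or dropped by the counting, which the sources used here do not describe.

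Slc22a12, the urate exchanger URAT1 of the apical membrane, was picked with its values in view, as the most abundant uptake gene per kilobase in the controls. It was at 1774, 1609, 1687 and 3588 CPM in control 1, 2, 3 and 5 and at 38.2, 40.4, 174 and 284 CPM in cisplatin 1, 3, 4 and 6, a log2 fold change of -4.01 ± 0.70 (SE; edgeR adjusted p = 0.00115) that was -4.68 without cisplatin 6 and -3.23 without cisplatin 1 and 3. Control 5 stood above the other controls, and the gene shares its locus with Nrxn2 on the opposite strand, so that without a stated strand setting the reads of the 2 genes cannot be told apart. The other 4 tested carriers of the role, Slc22a7, Slc22a13, Slc22a19 and Slc22a29, had log2 fold changes from -5.11 to -2.09, and that of Slc22a29 went from -3.04 to -3.83 without cisplatin 1. Their respective estimates were -3.27, -1.51, -4.32 and -4.19 without cisplatin 1 and 3.

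Many Slc22 genes lie together on chromosome 19 (GRCm38), and the stretch allowed a comparison of the carriers with their neighbours. From base 5970234 to base 8628299, the used rows held 8 Slc22a members, of which 7 were tested and all 7 were lower, with a median log2 fold change of -4.64. The other 32 tested genes of the stretch had a median log2 fold change of 0.00, with 2 lower, 3 higher and 27 not called. Over all genes tested, 15.7% were called lower and 19.2% higher.

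The promoters of the transporter genes were also read for a motif, as a description of their sequence. The motif was a palindrome made of GTTAAT, any base, and ATTAAC, which is known from the promoters of genes of the proximal tubule and liver. Windows of 250 bases before the RefSeq gene starts (GRCm38.p6) were searched, with up to 2 mismatches over the 12 defined bases, a search that covers both strands because the motif is its own reverse complement. A match was present in 407 of 32851 windows of all genes, which is 1.24%. The 53 transporter genes with a window had 62 windows, since some genes have several starts, and 7 windows (11.3%), each of a different gene, held a match. These were 5 of 32 windows of lower genes (15.6%) and 2 of 13 of untested genes (15.4%). None of 15 windows of genes that were not called and none of 2 of higher genes held a match. By gene, 5 of the 27 lower genes with a window had a match. A link between a match and the fall was not tested.

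The lower genes with a match were Abcc2, Slc17a1, Slc22a22, Slc22a29 and Slc22a30. The 4 windows below are shown because they lie before RefSeq starts of carriers that fell strongly, and they overlap no exon in GENCODE M21. The match stands in capitals, each line is read 5′ to 3′ on the strand of its gene, and Abcc2 is left out because its window overlaps an annotated exon.
Slc17a1, chr13:23870188-23870248, plus strand: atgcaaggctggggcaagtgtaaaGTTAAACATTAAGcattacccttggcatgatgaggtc
Slc22a22, chr15:57265162-57265221, minus strand: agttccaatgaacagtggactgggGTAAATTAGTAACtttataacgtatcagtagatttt
Slc22a29, chr19:8218901-8218960, minus strand: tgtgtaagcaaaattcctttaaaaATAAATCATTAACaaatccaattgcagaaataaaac
Slc22a30, chr19:8405129-8405189, minus strand: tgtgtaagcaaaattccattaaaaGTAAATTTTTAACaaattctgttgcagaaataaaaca
The matches begin 61, 36, 36 and 60 bases before the respective RefSeq start. The windows of Slc22a29 and Slc22a30 share most of their bases outside the match, as neighbouring copies on chromosome 19 do, so they are not independent of each other. The windows of Slc17a1 and Slc22a22 lie inside the longer gene models of the table, at internal RefSeq starts. A match describes the letters of a window only, and binding was not measured.

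Among the organic cation and carnitine carriers, all 3 tested members of 4 were lower. Slc22a2 (OCT2), the basolateral cation carrier best known for cisplatin uptake in the kidney, measured 615, 564, 557 and 727 CPM in control 1, 2, 3 and 5, and 11.7, 18.1, 55.4 and 58.5 CPM in cisplatin 1, 3, 4 and 6. Every cisplatin library was below every control, with cisplatin 4 and 6 again the higher ones. The log2 fold change was -4.10 ± 0.52 (SE; edgeR adjusted p = 0.000174), a 17.2-fold lower mean, and it was -3.43 without cisplatin 1 and 3.

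Slc22a5, the carnitine carrier OCTN2, measured 436, 364, 483 and 578 CPM in the controls and 114, 158, 111 and 121 CPM after cisplatin. Its cisplatin libraries lay close together, unlike those of Slc22a2, and its log2 fold change was -1.88 ± 0.20 (SE; edgeR adjusted p = 5.85e-05).

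The copper importer Slc31a1 (CTR1), which is also known to carry platinum drugs, had the smallest standard error of the 11 measured genes best known for cisplatin, copper or drug transport, of 17 that were listed. It measured 327, 302, 302 and 339 CPM in control 1, 2, 3 and 5, and 129.6, 109, 122 and 108 CPM in cisplatin 1, 3, 4 and 6. The groups were well separated, and cisplatin 1 and 3 overlapped with cisplatin 4 and 6. The log2 fold change was -1.44 ± 0.14 (SE; edgeR adjusted p = 3.5e-05), and it was -1.46 without cisplatin 1 and 3. Scaled by total library size alone it was -0.87 and not called. Cdc26 overlaps this gene on the opposite strand.

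Of the organic anion transporting polypeptides, which carry bile acids, steroid conjugates and drugs, 3 of 6 members were tested. Slco1a6 measured 414, 372, 366 and 369 CPM in the controls and 8.41, 6.71, 15.3 and 15.9 CPM after cisplatin, a log2 fold change of -5.04 ± 0.31 (SE; edgeR adjusted p = 3.3e-06). Slco1a4 was at 5.58, 3.51, 4.78 and 2.44 CPM in the controls and 0.955, 0.715, 0.293 and 0.0793 CPM after cisplatin, and was lower with a log2 fold change of -2.90 ± 0.56. Its estimate was -4.35 without cisplatin 1 and 3, on 4 and 1 counts in cisplatin 4 and 6. Slco2b1 was the only tested uptake gene that was not called. It ranged from 13.7 to 60.4 CPM in the controls and from 31.8 to 62.2 CPM after cisplatin, and the groups overlapped.

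The make-up of the uptake arm differed between the groups. Per kilobase, Slc22a12 made up 28.5% ± 4.82 and Slc22a6 18.2% ± 3.55 of the summed uptake level in control kidneys (SD, n = 4). After cisplatin, Slc22a12 made up 18.2% ± 8.71 and Slc22a6 7.05% ± 3.98. The carriers that fell less held more of the remaining level, with Slc22a5 going from 4.67% ± 0.49 to 18.7% ± 10.9 and Slc31a1 from 2.34% ± 0.39 to 12.3% ± 6.34. The shares after cisplatin spread widely over the libraries, and those of Slc22a12 and Slc22a5 (18.2% and 18.7%) did not differ beyond that spread.

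**Figure D3:**
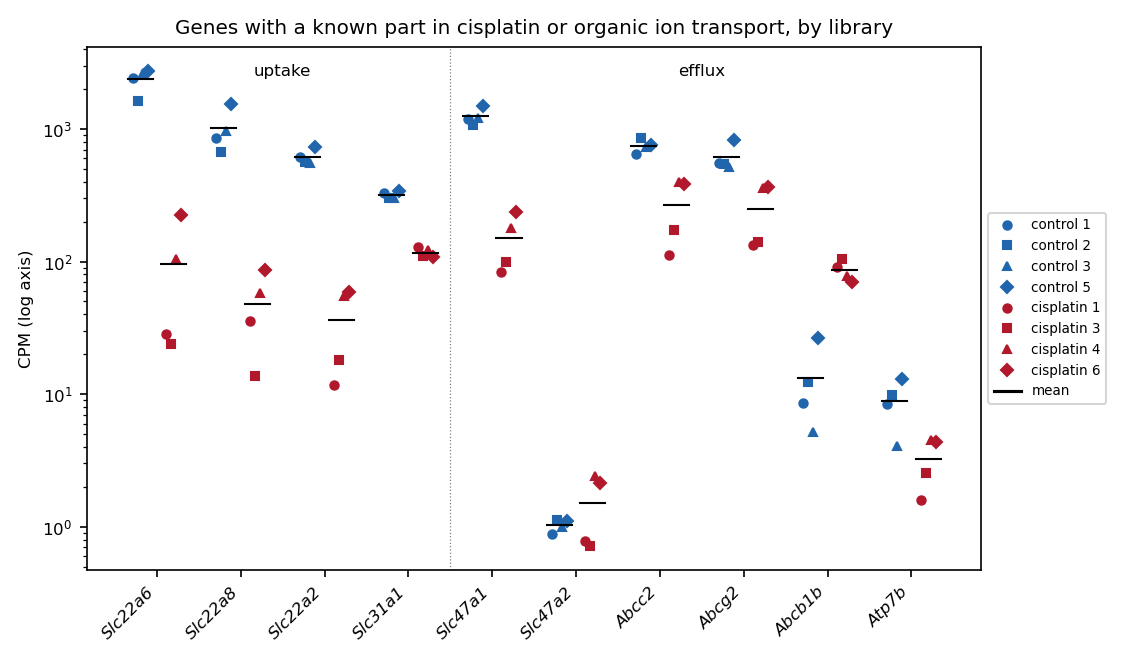
CPM on a log axis for the genes best known for cisplatin, copper or organic ion transport, with the 4 control and the 4 cisplatin libraries and the mean of each group. All 4 uptake genes drawn are below the controls in every cisplatin library, while Abcb1b is above them in every cisplatin library.

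In the efflux arm, the exchanger Slc47a1, the copper ATPase Atp7b and 4 ABC pumps were lower, Abcb1b was higher, and Slc47a2 and Abcc5 were not called. Slc47a1 (MATE1), which exchanges organic cations for protons at the apical membrane and is known to carry cisplatin out of the cell, measured 1197, 1079, 1212 and 1495 CPM in control 1, 2, 3 and 5, and 83.4, 99.9, 178 and 238 CPM in cisplatin 1, 3, 4 and 6. No library of one group reached the other. The log2 fold change was -3.06 ± 0.34 (SE; edgeR adjusted p = 9.58e-05). Its share of the summed efflux level per kilobase was 67.2% ± 2.55 in control kidneys and 34.9% ± 3.40 after cisplatin (SD, n = 4).

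Slc47a2, the second MATE gene, lies beside Slc47a1 on chromosome 11 and was at a low level. It measured 0.886, 1.12, 0.986 and 1.10 CPM in the controls and 0.773, 0.715, 2.42 and 2.14 CPM after cisplatin. Cisplatin 1 and 3 were below all controls and cisplatin 4 and 6 were above them, and the gene was not called (log2 fold change 0.53 ± 0.46, SE; edgeR adjusted p = 0.363). Without cisplatin 1 and 3 it was called higher, at a log2 fold change of 1.16 (edgeR adjusted p = 0.0161), and with control 1, 2 and 3 and cisplatin 1 and 3 alone the estimate was -0.47.

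The ABC drug and conjugate pumps use ATP to expel drugs and their glutathione or glucuronide conjugates. Of 7 members, 6 were tested, and 4 were lower and 1 higher. Abcc2 (MRP2), the apical pump of conjugates, measured 651, 858, 732 and 762 CPM in control 1, 2, 3 and 5, and 113, 174, 397 and 388 CPM in cisplatin 1, 3, 4 and 6, a log2 fold change of -1.49 ± 0.38 (SE; edgeR adjusted p = 0.00879). Abcg2 (BCRP), the apical pump of urate and many drugs, measured 557, 544, 513 and 831 CPM in the controls and 132, 141, 361 and 368 CPM after cisplatin, a log2 fold change of -1.29 ± 0.37 (SE; edgeR adjusted p = 0.0162). For both genes, the fall was larger in cisplatin 1 and 3, and without these libraries the estimates were -0.93 and -0.74 and neither gene was called.

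Abcb1b, which with Abcb1a encodes the multidrug pump P-glycoprotein in the mouse, was the efflux gene that went up. It measured 8.59, 12.4, 5.16 and 26.6 CPM in control 1, 2, 3 and 5, and 90.5, 105, 78.3 and 69.6 CPM in cisplatin 1, 3, 4 and 6. Every cisplatin library was above every control, and control 5 was the highest control. The mean was 6.51-fold higher, with a log2 fold change of 2.70 ± 0.44 (SE; edgeR adjusted p = 0.0008), and it was 2.50 without cisplatin 1 and 3 and 3.29 without control 5. Per kilobase, Abcb1b went from 0.29% ± 0.17 to 10.3% ± 5.55 of the summed efflux level. Abcb1a was on a row that was not used here, and reads that fit both paralogs cannot be placed, so the value may hold reads of Abcb1a. The annotated genes Gm5106 and 7330423F06Rik overlap Abcb1b.

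Abcc6, an ABC transporter whose loss leads to ectopic mineral deposits, measured 20.4, 22.1, 23.1 and 45.7 CPM in the controls and 1.0, 1.21, 2.64 and 2.62 CPM after cisplatin, a log2 fold change of -3.92 ± 0.42 (SE; edgeR adjusted p = 7.37e-05). Abcc5, a pump of nucleotide analogues, was not called and ranged from 71.7 to 90.3 CPM in the controls and from 46.9 to 90.6 CPM after cisplatin. Atp7b, the copper ATPase that is also known to export platinum drugs, measured 8.41, 9.81, 4.10 and 13 CPM in control 1, 2, 3 and 5, and 1.59, 2.53, 4.54 and 4.36 CPM in cisplatin 1, 3, 4 and 6. The groups overlapped at control 3. It was called lower at -1.45 ± 0.44 (SE; edgeR adjusted p = 0.0203), and it was not called without cisplatin 1 and 3 (-0.98) or without control 5 (-1.22, edgeR adjusted p = 0.0510).

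Among the genes in neither arm, the apical Slc17 carriers of phosphate and urate were both lower among 2 tested of 3, with a median log2 fold change of -4.21. Slc17a1 (NPT1) measured 1344, 1256, 1240.2 and 1143 CPM in the controls and 41.3, 52.6, 105 and 97.7 CPM after cisplatin, a log2 fold change of -4.07 ± 0.33 (SE; edgeR adjusted p = 1.48e-05). Slc17a3 (NPT4) measured 1458, 1303, 1335 and 1235 CPM in the controls and 39.1, 41.3, 85.8 and 96.3 CPM after cisplatin, a log2 fold change of -4.34 ± 0.34 (SE; edgeR adjusted p = 1.31e-05). In contrast, Slc17a9, the vesicular nucleotide carrier that loads ATP into secretory vesicles, measured 1.42, 1.60, 1.37 and 1.57 CPM in the controls and 3.23, 3.90, 10.3 and 9.52 CPM after cisplatin. It was low in level and higher in every cisplatin library, with a log2 fold change of 2.17 ± 0.43 (SE; edgeR adjusted p = 0.00245).

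Slc22a18, an orphan Slc22 carrier in an imprinted region of the genome, fell from 748, 695, 674 and 1149 CPM in the controls to 47.2, 53.3, 152 and 123 CPM after cisplatin (log2 fold change -3.12 ± 0.41, SE; edgeR adjusted p = 0.000237). Slc22a23, another orphan member, fell from a mean of 155 ± 20.0 CPM to 65.0 ± 26.9 CPM (SD, n = 4; log2 fold change -1.25 ± 0.27, edgeR adjusted p = 0.0037), and it was not called with control 1, 2 and 3 and cisplatin 1 and 3 alone (-0.85) or with scaling by total library size alone (-0.66). Nor was Slc22a23 called with the replicate numbers shared by the groups as a block (-0.91). Slc22a14, which was outside the rule for named genes and is given to complete the 4 higher members, was at 1.06 to 3.30 CPM in the controls and at 3.27 to 6.81 CPM after cisplatin, and the groups overlapped (log2 fold change 1.17 ± 0.44, SE; edgeR adjusted p = 0.0478). Its gene model overlaps Slc22a13, Slc22a13b-ps, Oxsr1, Gm22729 and Myd88 on the same strand and Acaa1a and Xylb on the other. The value of Slc22a14 may therefore hold reads of these genes. Slc22a14 was not called under 8 of the 18 alternative settings.

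The ABC transporters of lipids, sterols and peroxisomes were a mixed group, with 4 of 10 tested members lower, none higher and a median log2 fold change of -0.50. Shares over all genes tested were 15.7% lower and 19.2% higher. Abca13, a large lipid transporter, fell from 156, 204, 194 and 259 CPM in the controls to 17.9, 10.7, 9.08 and 15.6 CPM after cisplatin (log2 fold change -3.93 ± 0.27, SE; edgeR adjusted p = 5.74e-06). Abca3, which moves phospholipids in lamellar bodies of the lung, fell from 648, 526, 659 and 1069 CPM to 161, 229, 174 and 138 CPM (log2 fold change -2.05 ± 0.26, edgeR adjusted p = 0.00018). Unlike for Slc22a6 and Slc22a8, cisplatin 4 and 6 were not the higher pair for Abca13 or Abca3. Abca4, known as the retinoid transporter of photoreceptors, fell from a mean of 21.3 CPM to 8.65 CPM, with a log2 fold change of -1.30 ± 0.26, and was not called with scaling by total library size alone (-0.71, edgeR adjusted p = 0.0513). Nor was Abca4 called with the replicate numbers shared by the groups as a block (-0.80). The cholesterol exporter Abca1 ranged from 45 to 54.2 CPM in the controls and from 26.8 to 88.5 CPM after cisplatin and was not called.

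The channel subunits of the family split. Abcc9 (SUR2), the regulatory subunit of the vascular and muscle ATP-sensitive potassium channel, measured 40.5, 63.5, 19 and 43.7 CPM in the controls and 13, 7.20, 5.12 and 7.93 CPM after cisplatin, a log2 fold change of -2.32 ± 0.39 (SE; edgeR adjusted p = 0.000976). Abcc8 (SUR1), the subunit of the channel of pancreatic beta cells, was near 1 CPM, with 0.886, 0.479, 0.834 and 0.629 CPM in the controls and 2.27, 2.42, 2.49 and 1.27 CPM after cisplatin, a log2 fold change of 1.58 ± 0.35 (SE; edgeR adjusted p = 0.00483). The groups did not overlap for either gene. None of the 4 mitochondrial, lysosomal or ribosome-associated ABC genes tested was called, and Abcf1, a translation factor with ABC domains, was at 177 to 188 CPM in the controls and 197 to 236 CPM after cisplatin.

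The fall of the uptake genes was set beside the markers of the cells that carry them. All 15 proximal tubule markers were lower, with a median log2 fold change of -4.02, near the -4.10 of the uptake genes, and their summed level went from 85926 to 7889 CPM, 9.18% of the control level (6.31% without Kap). In single cisplatin libraries, the summed level of these markers ran from 2251 CPM in cisplatin 3 to 16195 CPM in cisplatin 6. Their most abundant gene by CPM, Kap, a proximal tubule transcript, was at 29704 to 35066 CPM in the controls and at 544, 229, 6220.4 and 11022 CPM in cisplatin 1, 3, 4 and 6. The largest falls were those of Slc7a13, Slc5a12 and Gatm, with log2 fold changes of -6.40, -5.83 and -5.37, and that of Slc7a13 was -7.86 without cisplatin 6. Slc34a1, the phosphate carrier that defines the proximal tubule, was at 10272 to 14557 CPM in the controls and at 119, 94.6, 427 and 652 CPM after cisplatin. None of the markers was at 0 in any library, though Slc7a13 had only 2 counts in cisplatin 3. The part of a loss of proximal tubule RNA in the fall of the carriers was not tested.

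The markers of other cell types were measured in the same way, where 19.2% of all genes tested were called higher and 15.7% lower. Of the thick ascending limb markers, 2 of 3 were lower with a median of -1.85, and of the distal tubule markers 2 of 4 with a median of -1.04. Slc12a1, the other thick ascending limb marker, was at -1.78 and not called, and was called lower at -2.71 when cisplatin 1 was left out. Umod, whose value is the median of that list, was at -2.51 in the same fit. None of 2 podocyte and 3 endothelial markers was called, with medians of 0.08 and -0.12. Of the tubule injury markers, 7 of 8 were higher, led by Krt20, Lcn2 and Havcr1 with log2 fold changes of 11.07, 9.23 and 8.27. Without control 2, those of Krt20 and Havcr1 were 12.25 and 8.89.

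**Figure D4:**
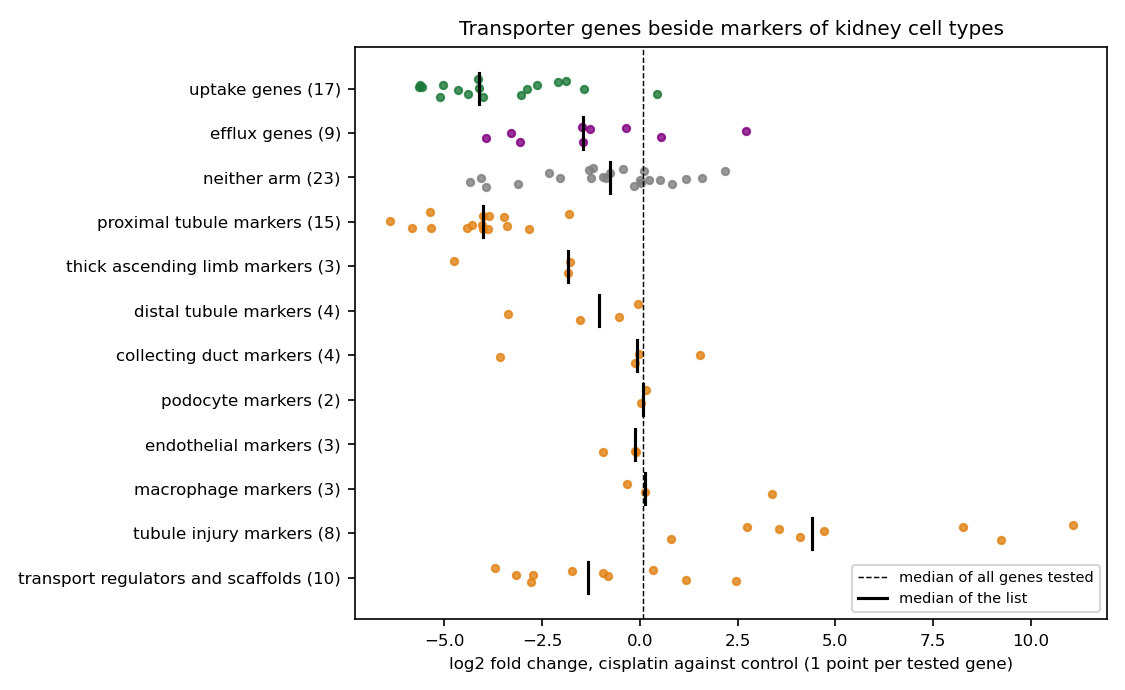
Log2 fold change of every tested uptake gene, efflux gene and gene in neither arm, beside those of marker lists of kidney cell types, injury markers and transport regulators, with the number of tested genes in parentheses. Short black lines are medians, the dashed line is the median of all genes tested, and the uptake genes and the proximal tubule markers have medians of -4.10 and -4.02.

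Of 10 tested genes that regulate or scaffold these carriers, 5 were lower and 2 higher, where the shares over all genes tested were 15.7% and 19.2%. Pdzk1, a scaffold that holds apical carriers such as Slc22a12 and Slc17a1 in place, fell from 1138, 1067, 999 and 1180.3 CPM in the controls to 56.6, 87.3, 89.2 and 102 CPM after cisplatin (log2 fold change -3.71 ± 0.22, SE; edgeR adjusted p = 2.72e-06). Hnf4a, a transcription factor of the proximal tubule programme, fell from 1371, 1201, 1407 and 1932 CPM to 85.3, 128, 253 and 187 CPM (log2 fold change -3.18 ± 0.35, edgeR adjusted p = 7.96e-05). The higher genes were Cebpb, a stress-induced factor, with a log2 fold change of 2.45 ± 0.31, and Nfe2l2 (NRF2), the regulator of antioxidant genes, which rose from a mean of 233 to 525 CPM (1.17 ± 0.18).

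Of 18 tested genes that handle copper or platinum outside the transporters, 5 were higher and 2 lower, with a median log2 fold change of 0.07. Over all genes tested, 19.2% were called higher and 15.7% lower. The metallothioneins, which bind copper, zinc and platinum, were higher, with Mt1 at 112, 79.5, 88.0 and 116 CPM in the controls and 1321, 1507, 2838 and 1457 CPM after cisplatin (log2 fold change 4.17 ± 0.31, SE; edgeR adjusted p = 8.73e-06). Mt2 rose by 5.39 ± 0.59 from less than 1 CPM, and Lrrc8e, a subunit of the volume-regulated anion channel, rose by 2.25 ± 0.31. Ggt1, the apical enzyme that cleaves glutathione conjugates of cisplatin, fell from a mean of 2001 to 195 CPM (log2 fold change -3.36 ± 0.40). Of 10 tested carriers related to the members but named otherwise, 4 were lower and none was higher, led by Slc51a, a subunit of the basolateral steroid and bile acid carrier, at -4.23 ± 0.27.

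Within the cisplatin group, cisplatin 4 and 6 differed from cisplatin 1 and 3 across the carriers and across all genes. Of the 49 tested transporter genes, 26 were higher in both cisplatin 4 and 6 than in cisplatin 1 and 3, 15 were lower in both, and 8 overlapped. Over all 9141 genes tested, 36.7% were higher in both and 36.2% lower in both, so a lack of overlap between these libraries was common to most genes. The mean of cisplatin 4 and 6 was 37.5-fold that of cisplatin 1 and 3 for Slc22a30 and 20.4-fold for Slc22a26. Both rest on few counts in cisplatin 1 and 3, at 19 and 1 for Slc22a30 and 4 and 1 for Slc22a26. The ratio of these means was 9.16-fold for Slc22a7, 8.60-fold for Slc22a22 (23 and 13 counts) and 6.27-fold for Slc22a6. Of the 15 proximal tubule markers, 11 were higher in both cisplatin 4 and 6 than in cisplatin 1 and 3, 1 (Gatm) was lower in both, and 3 (Lrp2, Slc5a12 and Aqp1) overlapped. The median ratio of the means over these markers was 2.32, and the ratio ran from 0.541 for Gatm to 22.3 for Kap and 37.2 for Slc7a13, an amino acid carrier of the late proximal tubule. Summed without Kap, the markers were at 1900 and 2022 CPM in cisplatin 1 and 3 and at 4447 and 5173 CPM in cisplatin 4 and 6, while with Kap they were at 2444, 2251, 10667 and 16195 CPM in cisplatin 1, 3, 4 and 6. The largest differences the other way were those of Abcd2 and Slco1a4, at 8.39-fold and 4.49-fold higher means in cisplatin 1 and 3, both on low counts. Some organic anion carriers are known to differ between the sexes in the mouse kidney. The part of sex, of tubule RNA and of the library in these differences was not tested, and with 2 libraries against 2 they cannot be told apart.

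**Figure D5:**
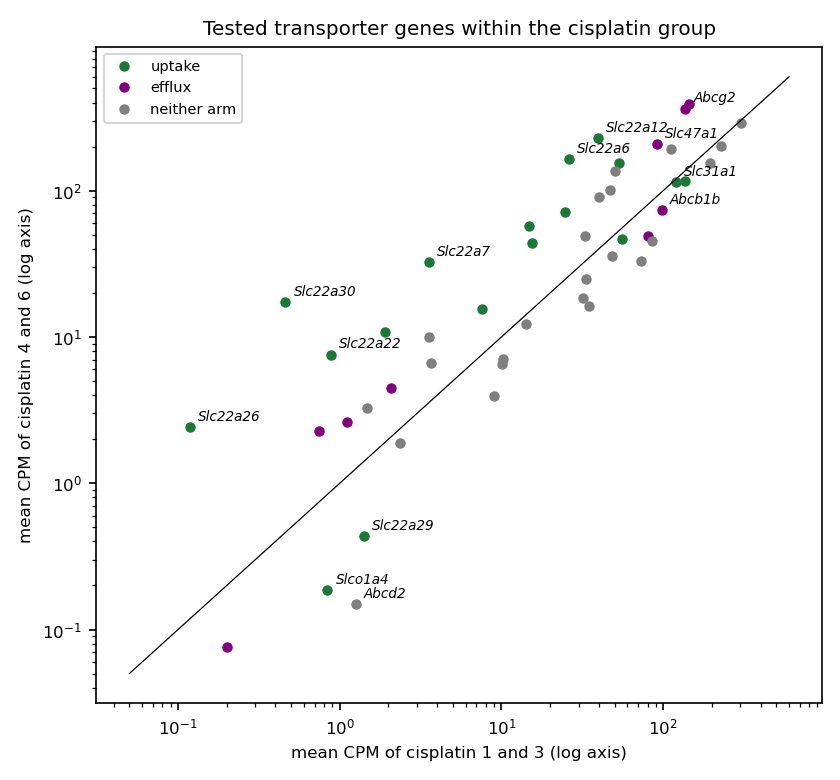
Mean CPM of cisplatin 4 and 6 against mean CPM of cisplatin 1 and 3 for the 49 tested transporter genes, both on log axes, with the line of equality. Slc22a30, Slc22a26, Slc22a7 and Slc22a22 lie farthest above the line, while Slc31a1 lies close to it and Abcd2 and Slco1a4 lie below it.

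Without cisplatin 1 and 3, 6 transporter genes were higher and 30 lower of 49 tested, where 21.4% and 20.5% of all 9261 genes tested were called higher and lower. All 4 higher genes and 28 of the 31 lower genes of the full comparison were shared. The genes no longer called were Abcc2, Abcg2 and Atp7b, all of the efflux arm, and the genes newly called were Slc47a2 and Abcf2 (higher) and Abcb10 and Abcd2 (lower). The median of the uptake genes was -3.81 and that of the efflux genes -0.93.

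The scaling of the libraries also bore on the efflux arm. The TMM factors ran from 0.785 to 0.853 in the controls and from 1.15 to 1.32 in the cisplatin libraries, and scaling by total library size alone moved the median difference of all genes up by 0.57 on the log2 scale. On that scale, 34.7% of all genes were called higher and 8.78% lower, and 5 transporter genes were higher and 24 lower. The uptake and efflux medians were -3.58 and -0.91, against 0.64 for all genes. The calls lost were Slc31a1, Abcc2, Abcg2, Atp7b, Abca4, Abcd3 and Slc22a23, and no called gene changed direction, while Abcb6, Abcc5 and Abcd2, called on neither scale, changed sign.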

How the data were processed

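Bulk RNA-seq of 4 control and 4 cisplatin mouse kidneys was analysed. The authors deposited raw read counts per gene, without normalization, and the submitters' processing notes name fastp, HISAT2 and GRCm38. The counting tool, annotation release and strand setting are not given in the sources used here. The methods name a GEXSCOPE library kit and the labels another maker's kit. Of 53715 rows, 35880 held 8 values and were used. The other 17835 (33.2%) held 10 values for 8 named libraries and were left out, as were the 2 unnamed extra columns. The total counts therefore cover part of each library. A count of 3 corresponded to 0.136 to 0.266 CPM and covers counting error only, since molecular identifiers are not described.

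The tests were run with edgeR 4.0.16 in R 4.3.3 (default expression filter, TMM, quasi-likelihood test, Benjamini-Hochberg adjustment over all 9141 genes tested). A standard error is the absolute log2 fold change divided by the square root of F. CPM are TMM-scaled. Gene lengths are the authors' deposited values and were used only for levels per kilobase. Coordinates are those of the table, and 55 of 61 members had the same ones in GENCODE M21. Promoters are from RefSeq.

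The members, their roles and the gene lists were chosen with earlier results of these data known. Named genes were the measured ones of 17 well-known carriers, and per role up to 3 called members per direction with the largest change, at 1 CPM or more on average and with groups that did not overlap. Of the other lists, up to 3 called genes per direction by the size of change and the most abundant marker were named. Slc34a1, Lrp2, Aqp1, Slc12a1 and members outside this rule (Slc22a7, Slc22a12, Slc22a13, Slc22a14, Slc22a19, Slc22a29, Slco2b1, Abcc5, Abca1, Abcd2, Abcf1 and those named only for a changed call) were chosen with their values in view. The study describes 4 mice per group, and each library was taken as 1 mouse. No pair of libraries of a group agreed within sampling noise. Some genes that met this rule are not reported here. The procedure was tested on simulated counts. The alternatives were DESeq2 1.42.0, other normalizations, other filters, a replicate block, a library set term, subsets of libraries and each library left out. The library set term held control 5 and cisplatin 4 and 6 apart from the other libraries. It is no sample label and follows the split of the second principal component of these same counts.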

Additional observations from a re-analysis of the deposited data

Results flagged for a closer look

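In 4 of 56 groups of libraries examined for the 28 named genes, 1 control library stood apart from the other 3 by more than Dixon's critical value for groups of 4 (gap to the nearest library over the range of the group). Chance alone would mark about 1 group in 20. In control 5, Abcc6 was at 45.7 CPM against 20.4 to 23.1 CPM in the other controls, Abcg2 was at 831 CPM against 513 to 557 CPM, and Slc22a18 was at 1149 CPM against 674 to 748 CPM. In control 1, Slco1a6 was at 414 CPM against 366 to 372 CPM. Control 5 is also the control that lay with cisplatin 4 and 6 on the second principal component. Without control 5, all 3 of these genes were called lower, as with it.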

How the results depend on the processing

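Of the 49 tested transporter genes, 33 kept their call under each of the 18 alternatives that tested them, including 24 of the 31 lower and 3 of the 4 higher genes. With total library size alone, all genes higher and lower numbered 3174 and 803, and 6 named genes were no longer called. A minimum of 10 counts in every library left 1101 genes higher, with 7485 genes tested. With the replicate block, which compares the numbers 1 and 3 shared by the groups, 7 transporter genes were higher and 30 lower, and Slc47a2 was at -0.33. In that fit Abca4 (-0.80) and Slc22a23 (-0.91) were not called, Slco2b1 (1.21), Abca8a (1.22) and Abca8b (1.11) were called higher, and Abcd4 (-1.28) was called lower. With control 1, 2 and 3 and cisplatin 1 and 3 alone, Slc47a2 was at -0.47. In both of these fits the cisplatin side rests on cisplatin 1 and 3, the libraries almost without Y-linked counts. The cause of these changes was not tested. The same-numbered pairs correlated at 0.25 and 0.28, with only 2 shared numbers, and libraries did not correlate best with their own number throughout, so the numbers were not taken as pairs. Leaving out 1 library gave 3 to 4 transporter genes higher and 30 to 32 lower, 1559 to 1848 of all genes higher and 1351 to 1533 lower, and medians of -4.63 to -3.77 for the uptake genes and -1.66 to -1.21 for the efflux genes. Between these fits the call of Atp7b was lost without control 5, and that of Slc22a14 without control 1, control 3, cisplatin 3, cisplatin 4 or cisplatin 6. DESeq2 gave 4 transporter genes higher and 31 lower. Low counts limit Slc22a26, Slc22a29, Slc22a30, Slco1a4 and Abcg3 after cisplatin.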

Other observations

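Lists of other cell types were also measured, beside shares over all genes tested of 19.2% higher and 15.7% lower. The fibroblast and pericyte markers Col1a1, Col1a2 and Col3a1 were all higher (3 of 3, median log2 fold change 2.87), and their summed level went from 168 to 1076 CPM. Of the neutrophil markers, 4 of 5 were higher with a median of 2.68, at a summed level of 4.89 CPM in control and 19.1 CPM in cisplatin kidneys. Of the macrophage markers 1 of 3 was higher, the lipopolysaccharide co-receptor Cd14, with a log2 fold change of 3.39 ± 0.21 (SE; edgeR adjusted p = 3.38e-06), and of the lymphocyte markers 1 of 5 was higher and 2 were lower. Among the collecting duct markers, the water channel Aqp2 was higher and the anion exchanger Slc4a1 of intercalated cells was lower, while 2 of 4 were not called. The groups overlapped for Aqp2, with control 5 at 407 CPM and cisplatin 6 at 323 CPM. Of the hepatocyte markers, 1 of 4 was higher and 2 were lower, and of the adipocyte markers the 1 tested gene, Cidec, was higher at 4.41 ± 1.01 (6.14 without control 1).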
